A study of Mus musculus with 7 samples.

Results

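The 6 autosomal nuclear long noncoding RNAs (lncRNAs) Malat1, Neat1, Tug1, Miat, Pvt1 and Mir17hg were chosen by gene symbol, and all 6 were found among the 22556 genes of the expression table. The rule uses symbols and no measured value. They were followed in ChrRNA-seq libraries, in which RNA that stays with the insoluble chromatin fraction of nuclei is sequenced, from mouse embryonic stem (mES) cells treated with STM2457, a small-molecule inhibitor of the m6A writer METTL3. The groups were DMSO (3 libraries), 10 µM STM2457 (2 libraries), 20 µM (1 library) and 30 µM (1 library). In each group cells received DMSO or the inhibitor for 6 h, and doxycycline (Dox, 1.0 µg/mL) was then added for 24 h with DMSO or the inhibitor still present. All libraries came from C7H8, a single clonal XX line with a Cast x 129S background in which a TetOn promoter replaces the endogenous Xist promoter on the Cast allele, so that Xist was induced in every group, the DMSO controls included. The cells were grown on mitomycin-inactivated mouse fibroblasts, and no library without Dox was among those used here. The values are RPM, the read pairs of a gene scaled to the read pairs on all genes of the library, and they cover exons and introns of the sense strand.

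The writer complex that contains METTL3 places N6-methyladenosine (m6A) on nascent RNA, mainly at adenosines in a short sequence context of which GGACT is the classic form, and m6A can alter the processing and turnover of an RNA. Several abundant lncRNAs carry m6A. Malat1 is an unspliced transcript that accumulates at nuclear speckles, the bodies that store splicing factors. Neat1 is the architectural RNA of paraspeckles, which form around its long isoform together with RNA-binding proteins such as NONO and SFPQ, and its short isoform shares the 5′ end. The 3′ ends of Malat1 and of long Neat1 are made by RNase P, which cuts just before a tRNA-like structure. Tug1 is a broadly expressed spliced lncRNA, and Miat (also called Gomafu) is best known from neurons and binds splicing factors. Pvt1 lies next to Myc, and Mir17hg is the primary transcript from which the miR-17-92 cluster of microRNAs is cut by the nuclear enzyme Drosha.

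What each row of the table counted differed between the genes, and the coordinates here are those the table lists in mm10. Malat1 (chr19:5795689-5802671, minus strand) was counted whole, over 6983 bases. The Neat1 row (chr19:5842301-5845478, minus strand) covered 3178 bases, 15.3% of the 20771-base gene in GENCODE M21, and held only the 5′ part common to the short and long isoforms, so that the isoforms could not be told apart. Tug1 (chr11:3639784-3647536, minus strand) was listed with a counted length of 9031 bases, more than the 7753 bases between its listed ends. Miat (chr5:112213227-112228948, minus strand) was counted over 15722 bases, of which 56.3% are exonic. Pvt1 (chr15:62037986-62250975, plus strand) was counted over 212990 bases, of which 2.02% are exonic, and how its read pairs divide between exons and introns was not tested. The Mir17hg row (chr14:115044389-115046728, plus strand) covered 2340 bases, 60.8% of the GENCODE gene.

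The Mir17hg row began inside the microRNA cluster. Of the 6 hairpins that RefSeq (GRCm38.p6) places in the cluster, 4 lay upstream of the row, Mir19b-1 reached into it by 3 bases, and only Mir92-1 lay inside it. The first hairpin starts 718 bases before the row, so the Mir17hg value is a measure of the 3′ part of the host transcript and not of the mature microRNAs. The 6 guide strands below are shown because they are the products of this transcript. Capitals mark the seed, bases 2 to 8, and the sequences are from RefSeq.
mmu-miR-17-5p: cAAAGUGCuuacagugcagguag
mmu-miR-20a-5p: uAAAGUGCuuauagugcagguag
mmu-miR-18a-5p: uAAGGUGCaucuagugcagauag
mmu-miR-19a-3p: uGUGCAAAucuaugcaaaacuga
mmu-miR-19b-3p: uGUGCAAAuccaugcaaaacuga
mmu-miR-92a-3p: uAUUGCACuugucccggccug
The 11 mature sequences listed for the cluster held 9 distinct seeds, with AAAGUGC shared by miR-17-5p and miR-20a-5p, and GUGCAAA shared by miR-19a-3p and miR-19b-3p.

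**Figure D1:**
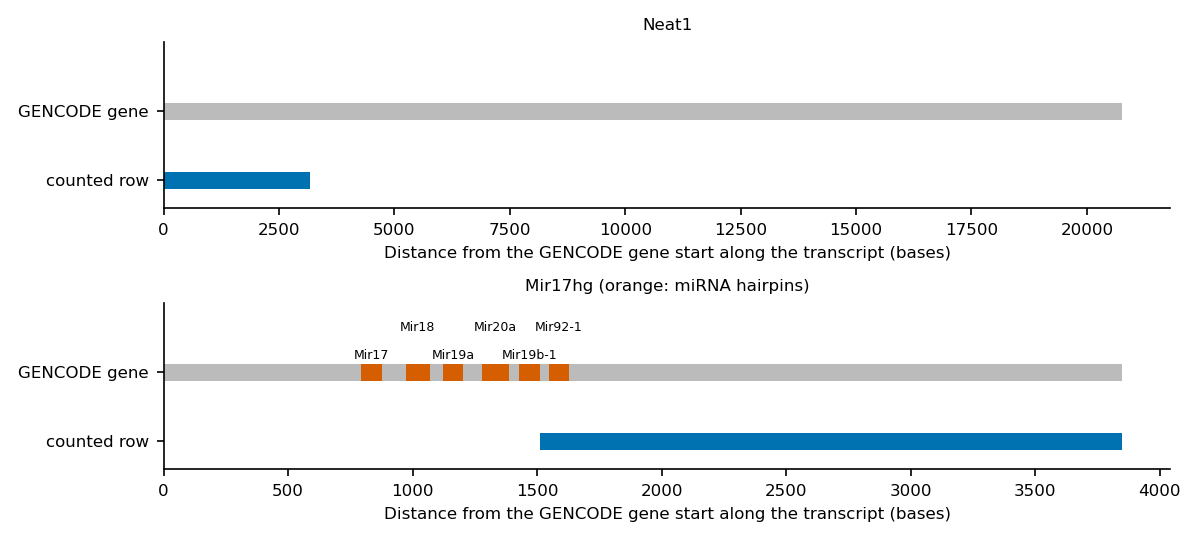
The annotated GENCODE gene (grey), the counted row (blue) and the microRNA hairpins (orange) of Neat1 and Mir17hg, against distance in bases from the gene's 5′ end. The Neat1 row covers 15.3% of the gene at its 5′ end, and the Mir17hg row covers 60.8% at its 3′ end and holds only the last hairpin whole.

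The letters GGACT were counted on the sense strand of a chosen annotated transcript of each member, and of both the short and long Neat1, with no overlap between matches. Malat1 held 9 in 6983 bases (1.29 per kb), short Neat1 held 6 in 3004 bases (2.00 per kb), and the 20771-base long Neat1 held 23 (1.11 per kb). Tug1 held 9 in 6719 bases (1.34 per kb), Miat held 18 in 8758 bases (2.06 per kb), and Mir17hg held 2 in 3536 bases (0.566 per kb). The chosen spliced Pvt1 transcript, of 1342 bases, held 0. Pvt1 has 10 annotated transcripts, and the introns that make up most of its counted span were not searched. Among 9177 annotated lncRNA transcripts of at least 1000 bases, 84.2% held GGACT and the median was 0.957 per kb. The density of Miat was above 86.8% of these transcripts and that of short Neat1 above 85.9%, while Malat1 stood at the 63.2 percentile. A match gives letters only, and methylation was not measured in these libraries. The windows of short Neat1 and 3 of those of Malat1 are shown as candidate methylation contexts. These members had the highest levels per kb of counted length. GGACT is in capitals, and positions are counted from 1 at the transcript's 5′ end.
Neat1 345: agacgggtGGACTgggggccc
Neat1 398: gtggggcaGGACTaggtgcgt
Neat1 513: tggaaggtGGACTtagcttcg
Neat1 570: ccctctctGGACTttgcctag
Neat1 1620: cgtcttctGGACTaaaaggga
Neat1 1886: cagatatgGGACTtgtgggag
Malat1 1110: agctactaGGACTgaagtaaa
Malat1 2463: accttcagGGACTggagctgc
Malat1 4812: gctgctcaGGACTttgcatat

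The libraries held from 9300549 (20 µM) to 28030180 read pairs on genes, and at the lowest depth a single read pair equalled 0.108 RPM. Over 13097 autosomal genes without the members, the first principal component took up 78.8% of the variance. By its sign the libraries fell into 2 sets, which are called set 1 (the 10 µM libraries with replicates 1 and 2 of DMSO) and set 2 (20 µM, 30 µM and replicate 3 of DMSO). The doses of 20 and 30 µM, with no replicate, are set against DMSO replicate 3 below only because it falls in their set, since no source used here gives them a shared batch. Against the mean log2 level of the 3 DMSO libraries, 6 of the 12 member ratios at these doses changed direction. The summed level of 77 ribosomal protein genes was 5164 to 7218 RPM in set 1 and 2850 to 4183 RPM in set 2, and 5 genes (Lars2, Cmss1, Gphn, Cdk8 and Camk1d) took 8.92% of the read pairs at 20 µM. The 10 mES cell markers summed to 1636 to 1824 RPM in set 1 and 1394 to 1623 RPM in set 2, with Esrrb and Zfp42 leading. Dppa5a (26.3 to 37.2 RPM in set 1 and 4.71 to 9.89 RPM in set 2), Klf2, Klf4 and Tdgf1 were lower in every set 2 library. Nanog (71.4 to 84.4 RPM in set 1 and 76.1 to 95.7 RPM in set 2), Pou5f1, Esrrb, Zfp42 and Utf1 overlapped between the sets, and Utf1 was highest at 20 µM (18.7 RPM). Sox2, which lies within Sox2ot on the same strand, was listed at 0. The 14 fibroblast markers summed to 66.5 to 74.7 RPM in set 1 and 42.2 to 48.3 RPM in set 2, with Col5a1 (15.3 to 42.0 RPM), Fbn1 (14.7 to 22.5 RPM) and Col6a1 (up to 10.7 RPM) as the largest, while Col1a1, Col3a1, Postn, Lum and Dcn were each below 1 RPM in every library and Tnc was higher in set 2 (2.57 to 3.23 RPM) than in set 1 (0.0714 to 0.197 RPM). The 7 primitive endoderm markers summed to 34.3 to 45.5 RPM in set 1 and 51.2 to 79.5 RPM in set 2, mostly from Dab2 alone (23.9 to 32.3 RPM in set 1 and 39.5 to 64.7 RPM in set 2), while Gata6 did not exceed 3.11 RPM. The part of these differences in the results was not tested. In such bulk libraries, fewer cells with an RNA and less of it per cell cannot be told apart.

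Malat1 had the highest mean RPM of all genes in the table and ranked first in every library except that at 20 µM, where 3 genes were above it, and the means of the other members ran from 1113 RPM (Pvt1) down to 3.52 RPM (Miat). By level per kb of counted length, Malat1 stood at 1651 ± 126 RPM per kb (SD, n = 7), the 3rd highest of the 13599 genes whose mean reached 1 RPM. Neat1 followed at 75.8 ± 22.2, Mir17hg at 40.6 ± 5.73, Tug1 at 19.1 ± 1.44, Pvt1 at 5.23 ± 1.05 and Miat at 0.224 ± 0.0948 RPM per kb (SD, n = 7 each). Of the neighbours in this order, Neat1 and Mir17hg overlapped, with a lowest Neat1 library of 48.9 and a highest Mir17hg library of 51.1 RPM per kb, and the other neighbours did not. The order rests on the length used for Pvt1, which stood at 258.8 ± 52.0 RPM per kb when divided by its exons alone and would then follow Malat1 directly.

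**Figure D2:**
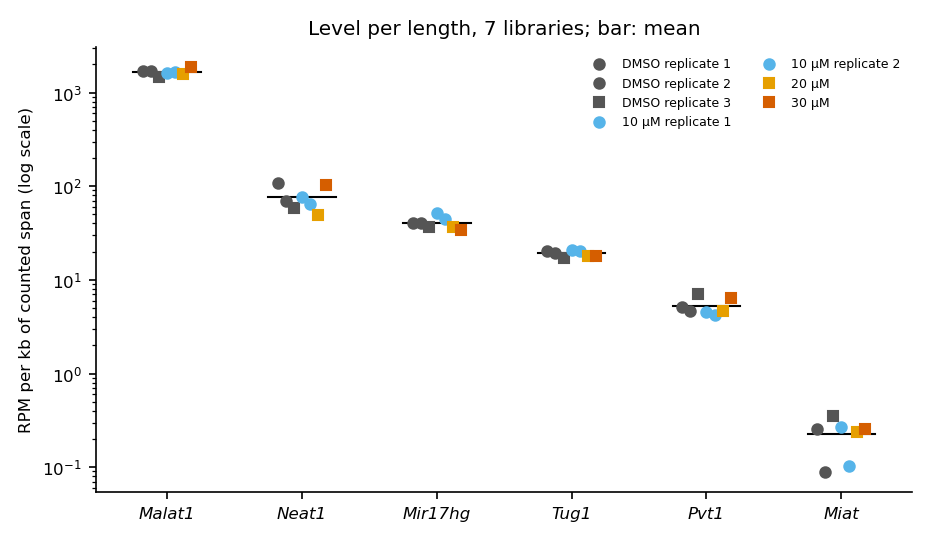
RPM per kb of counted gene length (log axis) of the 6 lncRNAs, with 1 point per library, coloured by dose, and a line at the mean of the 7. Malat1 stands at 1457 to 1862 RPM per kb and Miat at 0.0885 to 0.353, and only Neat1 and Mir17hg overlap among neighbours in the order.

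Malat1, the speckle RNA, varied by 1.28-fold over the 7 libraries and took 1.02% to 1.30% of all read pairs. Its level was 11856, 11853 and 10174 RPM in DMSO replicates 1, 2 and 3, 11367 and 11554 RPM at 10 µM, 10883 RPM at 20 µM and 13001 RPM at 30 µM. The DMSO libraries enclosed both 10 µM libraries and the 20 µM library, and the 30 µM library was the highest of the 7. The mean was 11294 ± 970 RPM in DMSO (SD, n = 3) and 11461 ± 132 RPM at 10 µM (SD, n = 2), a difference of 0.02 on the log2(RPM + 1) scale (SE 0.158, 95% interval -0.36 to 0.40, limma, adjusted p = 0.962). This sign turned with scaling and with the controls used: it was -0.07 with TMM factors and -0.05 without DMSO replicate 3, with or without the replicate number as a block. The 20 µM library stood 1.07-fold (1.06 to 1.08) and the 30 µM library 1.28-fold (1.27 to 1.28) above DMSO replicate 3, and against the mean of the 3 DMSO libraries these ratios were 0.966 and 1.15. Intervals of single-library folds are exact 95% intervals that cover counting error only, and read pairs are not independent molecules.

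Neat1, the paraspeckle RNA, varied more than the other members except Miat, by 2.19-fold over the 7 libraries, and the control libraries alone spanned much of that range. Its level was 340.6, 223.3 and 185.3 RPM in DMSO replicates 1, 2 and 3, 246.6 and 204.4 RPM at 10 µM, 155.5 RPM at 20 µM and 329.6 RPM at 30 µM. The groups overlapped, and the 30 µM library lay below DMSO replicate 1. The mean was 249.7 ± 81.0 RPM in DMSO (SD, n = 3) and 225.5 ± 29.9 RPM at 10 µM (SD, n = 2), a difference of -0.11 on the log2 scale (SE 0.263, 95% interval -0.74 to 0.53, limma, adjusted p = 0.894). DMSO replicates 1 and 2 alone differed by 1.53-fold (1.47 to 1.58), a larger ratio than in 98.2% of the genes tested. Without DMSO replicate 1 the difference of 10 µM from DMSO was 0.14, the opposite sign.

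Within the replicate pairs, which were split from a shared batch of cells, Neat1 was lower at 10 µM both times. It stood at 0.724-fold of DMSO (0.700 to 0.749) in pair 1 and 0.915-fold (0.881 to 0.951) in pair 2, where the median gene stood at -0.02 and 0.06 on the log2 scale. With the replicate number as a block, Neat1 was called lower by limma (log2 difference -0.30, SE 0.0649, adjusted p = 0.000386), beside 3.38% of all genes called lower in that fit. The same 4 libraries without the block gave the same difference with an SE of 0.180 and no call (limma adjusted p = 0.913). The call was kept with edgeR on the recovered read pairs (-0.32, edgeR adjusted p = 0.0316, 3.04% of genes called lower) and by limma with TMM factors (-0.33, limma adjusted p = 0.0216, 3.47% called lower). Both rest on the same 4 libraries, so they are not independent support. The block fit has 4 libraries and 1 residual degree of freedom. With or without TMM factors, limma took the spread wholly from the trend across genes, so that a gene's own spread had a weight of 0%. The differences of Neat1 in the pairs, -0.46 and -0.13, alone give an SE of 0.169, against 0.0649 in the fit, and those of Mir17hg give 0.0913, against 0.0748 in the fit. An exact permutation test of 2 pairs, two-sided, cannot go below p = 0.5.

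At the higher doses Neat1 stood on opposite sides of DMSO replicate 3. It stood at 0.839-fold of DMSO replicate 3 (0.789 to 0.891) at 20 µM and at 1.78-fold (1.71 to 1.85) at 30 µM. At 20 µM 31.7% of genes had a lower ratio, and the median gene stood at -0.10 on the log2 scale, against -0.25 for Neat1. With the total taken without the 5 genes high in that library, Neat1 stood at -0.13 and the median gene at 0.01. At 30 µM 98.5% of genes had a lower ratio. The 30 µM library was 2.12-fold (2.00 to 2.24) above the 20 µM library, a larger ratio than in 99.9% of genes. Neat1 was the only member at least 1.5-fold higher at 30 µM than in DMSO replicate 3, beside 5.29% of all genes, and no member was 1.5-fold lower, beside 2.6% of genes. With the mean of the 3 DMSO libraries as control Neat1 stood at 0.645-fold at 20 µM, past the limit of 1.5-fold, and at 1.36-fold at 30 µM, where no member was past it. Malat1, which lies 39.6 kb away on the same strand, was highest at 30 µM, and the Pearson r of Malat1 and Neat1 over the 7 libraries was 0.767, as a description.

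**Figure D3:**
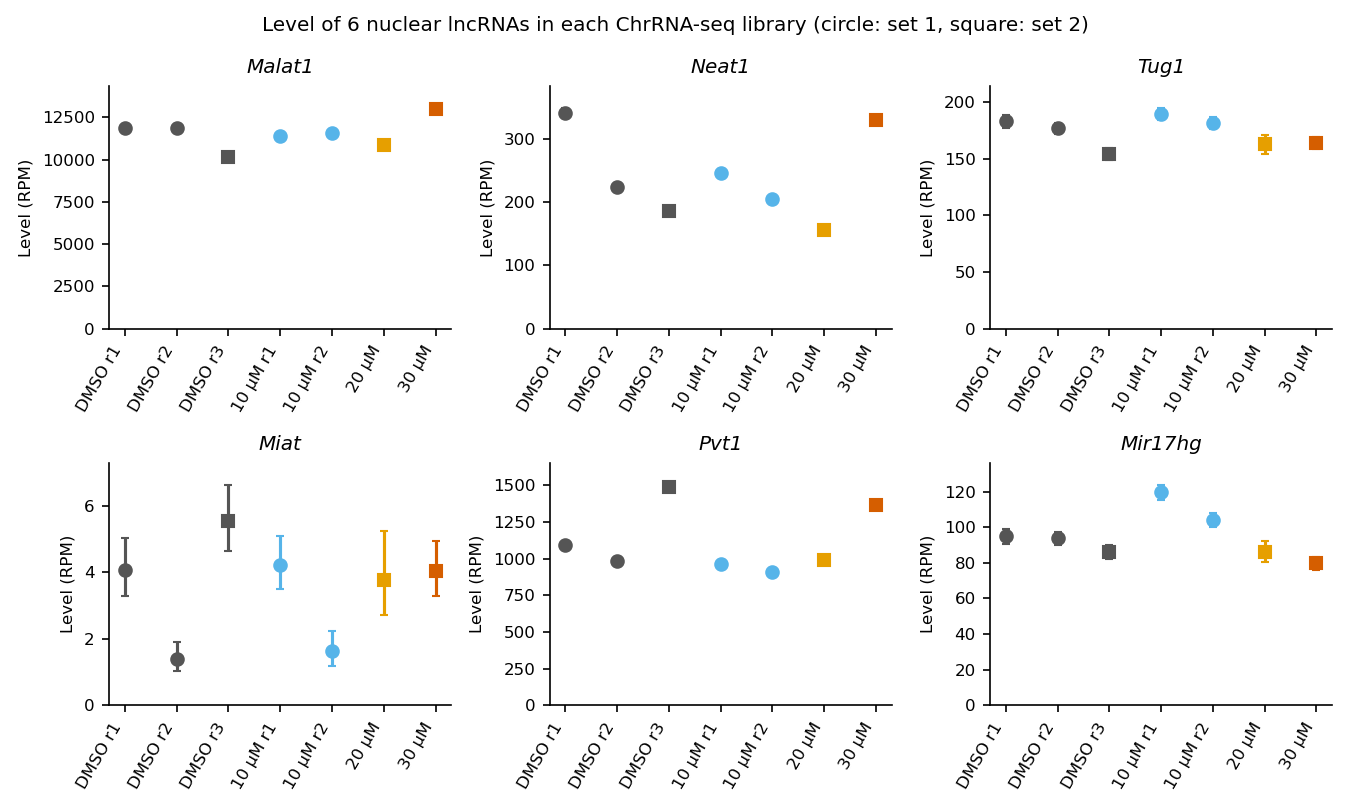
Level in RPM of each lncRNA in the 7 libraries, with 1 panel per gene and a linear axis from 0, circles for set 1, squares for set 2 and Wilson 95% counting intervals as bars where wider than the point. Neat1 stands between 155.5 and 340.6 RPM with DMSO replicate 1 and the 30 µM library highest, and Malat1 between 10174 and 13001 RPM.

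Tug1 had the smallest spread of the members, with a highest library 1.23 times the lowest. Its level was 182.9, 176.8 and 153.8 RPM in DMSO replicates 1, 2 and 3, 189.3 and 181.4 RPM at 10 µM, 162.6 RPM at 20 µM and 163.5 RPM at 30 µM. All set 1 libraries were above all set 2 libraries, whatever the dose. The mean was 171.2 ± 15.4 RPM in DMSO (SD, n = 3) and 185.3 ± 5.58 RPM at 10 µM (SD, n = 2), a difference of 0.12 on the log2 scale (SE 0.135, 95% interval -0.21 to 0.44, limma, adjusted p = 0.816). This difference was 0.04 without DMSO replicate 3 and 0.03 with TMM factors. Each inhibitor library was above the DMSO library of its pair or set, by 1.03-fold in both pairs (0.992 to 1.08 and 0.984 to 1.07), 1.06-fold at 20 µM (0.994 to 1.12) and 1.06-fold at 30 µM (1.01 to 1.11), and only the last of these intervals lies above 1. Of all genes, 15.9% were higher in all 4 of these ratios. With TMM factors the pair 2 difference of Tug1 turned to -0.04 on the log2 scale. Against the mean of the 3 DMSO libraries Tug1 was lower at both high doses, at 0.953-fold and 0.958-fold.

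Miat was the rarest member, with 35 to 119 read pairs in a library, and it spread most among the controls. Its level was 4.06, 1.39 and 5.54 RPM in DMSO replicates 1, 2 and 3, 4.22 and 1.62 RPM at 10 µM, 3.76 RPM at 20 µM and 4.02 RPM at 30 µM. The low libraries were replicate 2 of DMSO and replicate 2 of 10 µM. The mean was 3.67 ± 2.10 RPM in DMSO (SD, n = 3) and 2.92 ± 1.84 RPM at 10 µM (SD, n = 2), a difference of -0.22 on the log2 scale (SE 0.506, 95% interval -1.43 to 1.00, limma, adjusted p = 0.890). DMSO replicate 1 was 2.92-fold (1.98 to 4.38) above DMSO replicate 2, while the ratios within pairs were 1.04 (0.773 to 1.40) and 1.16 (0.724 to 1.87). Without DMSO replicate 3 the difference was 0.09, the opposite sign, with or without the block (with it, SE 0.170, limma adjusted p = 0.829). At 20 µM Miat was at 0.679-fold of DMSO replicate 3 (0.452 to 0.997) and at 30 µM at 0.726-fold (0.548 to 0.959), but against the mean of the 3 DMSO libraries it was above control at both doses, at 1.11-fold and 1.17-fold.

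Pvt1, the neighbour of Myc, held the most read pairs after Malat1 and was lower with the inhibitor than in the DMSO library of its pair or set at every dose, without passing a test. At 30 µM that direction rests on the control, since against the mean of the 3 DMSO libraries Pvt1 stood at 1.17-fold. Its level was 1091, 982.1 and 1489 RPM in DMSO replicates 1, 2 and 3, 966.6 and 906.9 RPM at 10 µM, 991.9 RPM at 20 µM and 1363 RPM at 30 µM. Both 10 µM libraries lay below all 3 DMSO libraries, as they did for 8.74% of genes, and DMSO replicate 3 was the highest library. The mean was 1187 ± 267 RPM in DMSO (SD, n = 3) and 936.8 ± 42.2 RPM at 10 µM (SD, n = 2), a difference of -0.32 on the log2 scale (SE 0.196, 95% interval -0.79 to 0.15, limma, adjusted p = 0.811). With the block the difference was -0.14 (SE 0.0633, adjusted p = 0.155).

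The ratios of Pvt1 were 0.886 (0.870 to 0.902) in pair 1, 0.923 (0.907 to 0.940) in pair 2, 0.666 (0.651 to 0.682) at 20 µM and 0.916 (0.901 to 0.930) at 30 µM. Of all genes, 14% were lower in all 4 ratios. DMSO replicate 3 stood 1.36-fold above DMSO replicate 1 and 1.52-fold above replicate 2, a larger difference than that between the inhibitor and control libraries in the pairs and at 30 µM. Against DMSO replicate 3, Pvt1 was the only member at least 1.5-fold lower at 20 µM, beside 7.25% of genes, and no member was 1.5-fold higher, beside 5.63% of genes. Pvt1 was no longer past that limit with TMM factors or with the total taken without the 5 genes that were high in this library, and it stood at 0.849-fold against the mean of the 3 DMSO libraries, where Neat1 was the member past the limit. The Myc row, 47.6 kb away on the same strand, had a mean of 8.48 RPM and a Pearson r of 0.646 with Pvt1 over the 7 libraries, as a description.

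**Figure D4:**
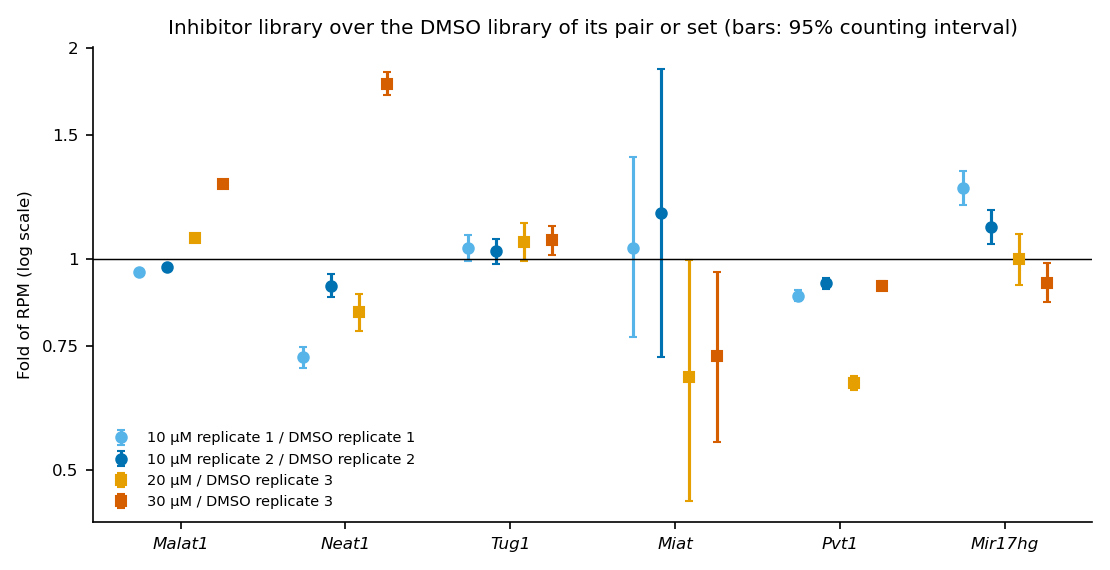
Ratio of each inhibitor library to the DMSO library of its pair or set (log axis) for the 6 lncRNAs, with exact 95% counting intervals as bars and a line at 1. Pvt1 lies below 1 in all 4 ratios and Neat1 lies between 0.724 and 1.78.

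Mir17hg, the host of the miR-17-92 cluster, had its highest levels in both 10 µM libraries and its lowest at 30 µM. Its level was 94.9, 93.7 and 86.3 RPM in DMSO replicates 1, 2 and 3, 119.6 and 104.0 RPM at 10 µM, 86.1 RPM at 20 µM and 79.8 RPM at 30 µM. Both 10 µM libraries lay above all 3 DMSO libraries, as they did for 16.6% of genes, the 20 µM library equalled DMSO replicate 3 within counting error, and the 30 µM library was the lowest. The mean was 91.6 ± 4.68 RPM in DMSO (SD, n = 3) and 111.8 ± 11.0 RPM at 10 µM (SD, n = 2), a difference of 0.28 on the log2 scale (SE 0.139, 95% interval -0.05 to 0.62, limma, adjusted p = 0.811). This difference ran from 0.18 (without 10 µM replicate 1) to 0.38 (without 10 µM replicate 2) when replicates were left out, and was 0.19 with TMM factors.

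The pair ratios of Mir17hg were 1.26 (1.19 to 1.34) and 1.11 (1.05 to 1.17). With the replicate block Mir17hg was called higher by limma (0.24, SE 0.0748, adjusted p = 0.0251), beside 4.13% of genes called higher, but not in the same block with edgeR (0.22, adjusted p = 0.134; 3.11% called higher) or with TMM factors (0.21, adjusted p = 0.157; 2.91% called higher). Against DMSO replicate 3 the ratio was 0.999 (0.918 to 1.09) at 20 µM and 0.925 (0.867 to 0.987) at 30 µM. As with Tug1, all set 1 libraries were above all set 2 libraries. This held for 2 of the 6 members, 33.3%, and for 39.8% of all genes, while no member had set 1 below set 2 throughout, beside 18.7% of genes.

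Over the 6 members, the unpaired comparison of 10 µM with DMSO called 0, as it called 0% of the 13599 genes with limma, of which 212 had an unadjusted p under 0.05 and no member did. With edgeR 0 genes were called (224 at an unadjusted p under 0.05) and with DESeq2 1, which was not a member. With the replicate block limma called 7.5% of genes and 2 of the 6 members, Neat1 and Mir17hg, in opposite directions. In the same block edgeR called 6.15% of genes and limma with TMM factors 6.38%, with Neat1 the only member in each. No member was at least 1.5-fold higher or lower in either pair, where 0.824% of genes were higher and 0.875% lower in pair 1, and 1.95% higher and 0.316% lower in pair 2. Both pairs were higher at 10 µM for Tug1, Miat and Mir17hg, beside 36.3% of all genes, and lower for Malat1, Neat1 and Pvt1, beside 26.9%. With TMM factors pair 2 of Tug1 was lower, and the other members kept these directions.

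The trend with dose over all 7 libraries called no member. The slopes of log2(RPM + 1) per 10 µM were 0.05 for Malat1 (SE 0.0662), 0.03 for Neat1 (SE 0.131), -0.02 for Tug1 (SE 0.0542), 0.08 for Miat (SE 0.180), 0.03 for Pvt1 (SE 0.0928) and -0.06 for Mir17hg (SE 0.0716), with limma adjusted p of 0.667 to 0.901. The trend called 0% of genes with limma (1174 at an unadjusted p under 0.05, none of them a member), 0 with edgeR (1244) and 129 with DESeq2, none of them a member. With the library set as a covariate, 0.199% of genes (0.0735% with a rise, 0.125% with a fall) and no member were called, and Tug1, Miat, Pvt1 and Mir17hg changed sign. Leaving out DMSO replicate 3 raised the count to 2485 of the 13599 genes tested, with no member among them. In that fit the higher doses are the only libraries of their set, so dose and library set cannot be told apart. Whether the absence of so few members departs from that share of genes was not tested. Leaving out the 30 µM library turned the Neat1 slope to -0.27 per 10 µM.

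**Figure D5:**
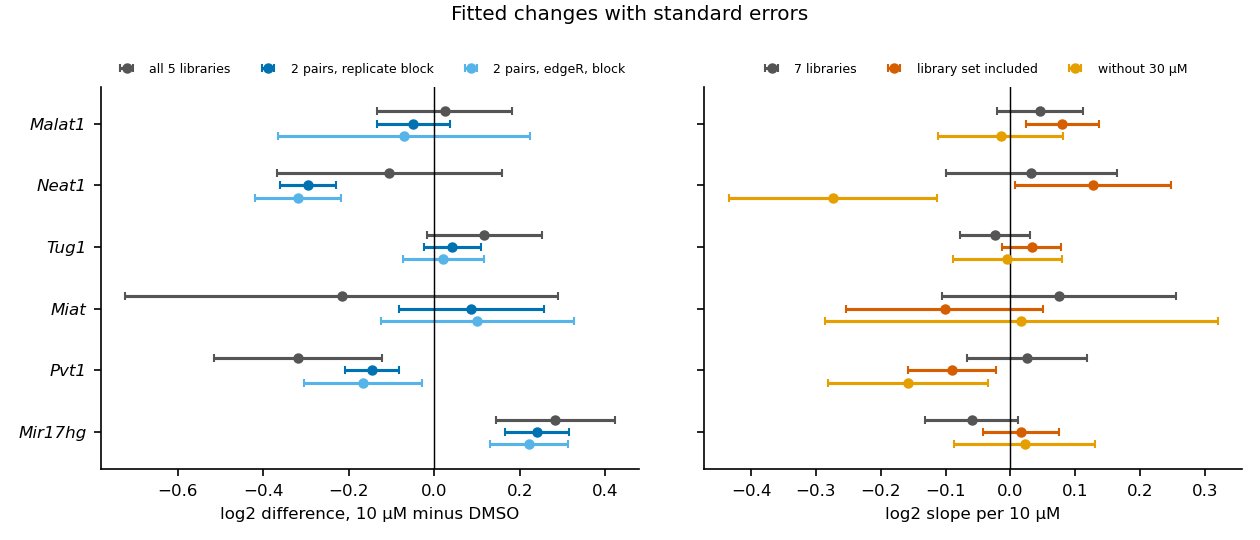
Left, log2 difference of 10 µM from DMSO with limma on all 5 libraries, limma on the 2 pairs with the replicate block, and edgeR with the block. Right, log2 slope per 10 µM with limma on all 7 libraries, with the library set included, and without the 30 µM library. Bars are 1 SE, taken for edgeR as the difference divided by the square root of F. Neat1 stands at -0.11 without the block and -0.30 with it, and its slope turns from 0.03 to -0.27 without the 30 µM library.

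Beside the members stand Xist and Kcnq1ot1, nuclear RNAs that act on chromatin. Xist stood at 1.30-fold of DMSO replicate 3 at 20 µM and 1.61-fold at 30 µM, and Kcnq1ot1 at 1.23-fold and 1.40-fold. At 10 µM the pair ratios were 1.07 and 1.02 for Xist and 1.06 in both pairs for Kcnq1ot1, and neither was called with the block (limma adjusted p = 0.637 and 0.489). The unpaired log2 differences had the opposite sign, at -0.27 for Xist (SE 0.316, limma adjusted p = 0.817) and -0.20 for Kcnq1ot1 (SE 0.279, limma adjusted p = 0.830). DMSO replicate 3 itself stood 2.08-fold and 1.90-fold above DMSO replicates 1 and 2 for Xist and 1.83-fold and 1.82-fold for Kcnq1ot1. Of the members, Malat1 and Tug1 were also above DMSO replicate 3 at both doses. Against the mean of the 3 DMSO libraries Malat1 was above control only at 30 µM and Tug1 at neither dose, while Xist stood at 2.05-fold and 2.55-fold and Kcnq1ot1 at 1.83-fold and 2.08-fold. The slope per 10 µM was 0.47 for Xist (SE 0.156, adjusted p = 0.508) and 0.37 for Kcnq1ot1 (SE 0.132, adjusted p = 0.508). With the library set as a covariate these were 0.20 (limma adjusted p = 0.164) and 0.15 (limma adjusted p = 0.250). Without DMSO replicate 3 they were 0.61 and 0.50 and passed the threshold (limma adjusted p = 0.0271 for each), as did 2485 of the 13599 genes in that fit. Set 2 then holds only the 20 and 30 µM libraries, so dose and library set cannot be told apart there. The difference from the members' slopes was not tested.

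The proteins that work with these RNAs were described by lists, for which the unpaired 10 µM comparison and the dose trend called 0 members in any list with limma. Of 19 paraspeckle protein genes tested, the block called 0 higher and 2 lower, among them Smarca4 (log2 difference -0.26, adjusted p = 0.00608), which encodes the ATPase of the SWI/SNF remodeler. Of 12 nuclear speckle protein genes it called 2 higher, the splicing factor gene Srsf1 (0.27, adjusted p = 0.00105) and the helicase gene Ddx39b (0.26, adjusted p = 0.00617), and 0 lower. Of 11 RNase P and RNase Z genes, whose products cut on either side of the tRNA-like structures of Malat1 and long Neat1, it called 0. Of 7 microRNA biogenesis genes it called 1 lower, Ago1 (-0.27, adjusted p = 0.0375), and of 7 target genes of miR-17-92 it called 1 lower, Bcl2l11 (-0.29, adjusted p = 0.0145), a pro-apoptotic gene. In this fit 4.13% of all genes were called higher and 3.38% lower. The median block difference was -0.04 for paraspeckle genes, 0.01 for speckle genes and 0.11 for RNase P and RNase Z genes, against 0.03 for all genes tested. It was 0.01 for microRNA biogenesis genes and -0.04 for the miR-17-92 targets. In the unpaired fit the median was 0.34 for RNase P and RNase Z genes and 0.08 for speckle genes, against 0.09 for all genes. It was -0.02 for paraspeckle genes, -0.02 for microRNA biogenesis genes and -0.06 for the targets. That fit includes DMSO replicate 3 of set 2. The RNase P and RNase Z genes summed to 277 to 312 RPM in set 1 and 253 to 268 RPM in set 2.

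The nearest tested genes on either side of the members were also followed. None of the 10 neighbours was called in the unpaired, paired or dose fits. Frmd8 lies 5.50 kb from the Neat1 row on the same strand at a mean of 18.1 RPM (r = 0.814 over the 7 libraries). Morc2a lies 1.96 kb from Tug1 on the opposite strand at 274.2 RPM (r = 0.886), and Gpc5 lies 45.5 kb from Mir17hg at 16.2 RPM (r = -0.816). These correlations share depth and the library sets, and they are given as a description.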

How the data were processed

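ChrRNA-seq of 7 libraries was used. Per the study's methods, reads of rRNA were taken out with Bowtie2, STAR was used for alignment to N-masked mm10, and uniquely aligned pairs were counted by strand over exons and introns with featureCounts. The RPM values deposited by the authors are these counts scaled with edgeR to each library's total on genes. A second deposited table, of X-linked allelic ratios, was not used.

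Whole read pairs were recovered from the steps between RPM values (100% of values above 0 within 0.1 read pair of a whole number). The 13599 genes whose mean reached 1 RPM were tested with limma 3.58.1 (lmFit, eBayes with trend, R 4.3.3) on log2(RPM + 1), a scale that understates changes of low genes. P-values were adjusted over all of them (Benjamini-Hochberg, threshold 0.05). The recovered counts were also tested with DESeq2 1.42.0 and with the quasi-likelihood test of edgeR 4.0.16. Folds of single libraries carry exact binomial 95% intervals. Other settings varied were the pseudocount, filter, scaling, variance trend, replicates, library set and control, and the replicate block with edgeR or with TMM factors was added after seeing the data. The study describes repeats of a clone as independent. P-values of the unpaired and dose fits draw on the spread between repeats of this clone, and their 3 DMSO libraries span both library sets. Those of the limma block fits take the spread from the trend across genes, with a weight of 0% on a gene's own spread.

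DMSO and 10 µM replicates with the same number were paired, since the study states that the wells of a replicate came from a shared batch of cells. Deviations of same-numbered libraries from their group means correlated at 0.621 over 13599 genes. On simulated counts for 13599 genes with 200 changed by 1 on the log2 scale, limma recovered 194 with 9 others for 10 µM against DMSO and 174 with 10 others for the dose trend, where 1 was the change at the highest dose. The simulated counts held no library sets, and these recoveries do not carry over to the real libraries. The set of symbols and the gene lists were put together with earlier results of these data known, although no value is part of the rule for members. Genes named are the members, Xist, Kcnq1ot1, each member's neighbours and the 3 genes most like it over the libraries, the steepest slopes of each list, and the list genes called with the block, the last chosen after their values were seen. Some genes that this rule names are not reported here.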

Additional observations from a re-analysis of the deposited data

How the results depend on the processing

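Of 190 values of single members under alternative settings, 159 kept their direction and side of the threshold, 27 reversed and 4 passed the threshold where the unpaired or dose value had not. Of 48 high-dose ratios under alternatives, 39 moved by less than the SD of the 3 DMSO libraries and 9 by more. Direction changed for 6 of 12 with the mean of the 3 DMSO libraries as control, 1 of 12 with TMM factors and 1 of 12 with the total taken without the 5 high genes. Where a value changed, the cause was not tested.

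For 10 µM against DMSO, the count of genes called was 0, and it was 1 with DESeq2, 1020 with the replicate block, 837 with the block and edgeR, 868 with the block and TMM factors, and 0 to 1 when each replicate was left out in turn. Members called were 2 with the block, 1 with the block and edgeR and 1 with the block and TMM factors. The median of all genes was 0.09 on the log2 scale and 0.00248 with TMM factors. Malat1 reversed to -0.0683 with TMM factors, -0.0652 with edgeR, -0.0718 with DESeq2, -0.0488 with the block, -0.0703 with the block and edgeR and -0.0826 with the block and TMM factors, and ran from -0.0488 (without DMSO replicate 3) to 0.0616 when replicates were left out. Neat1 ran from -0.30 (without DMSO replicate 3) to 0.14 (without DMSO replicate 1) when replicates were left out. It was -0.32 with the block and edgeR and -0.33 with the block and TMM factors. Miat reversed to 0.0872 with the block, 0.101 with the block and edgeR and 0.0662 with the block and TMM factors, and ran from -0.71 (without 10 µM replicate 1) to 0.28 (without 10 µM replicate 2). The block changed the calls of Neat1 and Mir17hg and of no other member. Adjusted p over all alternatives ran from 0.000386 to 1.00 for Neat1 and from 0.0251 to 1.00 for Mir17hg.

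For the dose trend, 129 genes were called with DESeq2, 27 with the library set, and 0 to 2485 when each replicate was left out, the most without DMSO replicate 3. Without the 30 µM library the slopes reversed to -0.0150 for Malat1, -0.27 for Neat1, -0.16 for Pvt1 and 0.0218 for Mir17hg. With the library set they reversed to 0.0329 for Tug1, -0.10 for Miat, -0.0900 for Pvt1 and 0.0163 for Mir17hg. Tug1 was 0.0131 with TMM factors, 0.0259 with edgeR and 0.0194 with DESeq2. Leaving out replicates, Neat1 ran from -0.0172 (without DMSO replicate 3) to 0.13 and Miat from -0.0549 (without DMSO replicate 2) to 0.19. Pvt1 ran from 0.00352 (without DMSO replicate 2) to 0.106 (without DMSO replicate 3), and Malat1 from 0.0231 (without DMSO replicate 3) to 0.0608. Tug1 ran from -0.0564 (without DMSO replicate 3) to -0.0140, and Mir17hg from -0.0913 (without DMSO replicate 3) to -0.0597.

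Members past 1.5-fold at 20 µM were 0 with TMM factors and 0 with the total taken without the 5 high genes, and at 30 µM 0 with the mean of the 3 DMSO libraries as control, a setting that left 1 member at 20 µM, Neat1 in place of Pvt1. Per kb of exons, Miat stood at 0.398 and Pvt1 at 258.8 RPM per kb. Depth limits Miat, with 35 read pairs at 20 µM, and the lack of replicates at 20 and 30 µM limits every value there.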

Other observations

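The 3 genes whose log2 levels were most like each member over the 7 libraries are given as a description, since all points share the library sets and depth. For Neat1 these included Aaed1 (r = 0.985) and Scarb1 (0.984), a lipoprotein receptor gene, and 59 genes had r above 0.9. For Malat1 they were Nsdhl (0.963), a gene of cholesterol synthesis, Acat3 (0.956) and Sfmbt2 (0.953), and 14 genes passed 0.9. Tug1 was unlike these in that 1567 genes had r above 0.9, with Atp5sl (0.998), Arhgap29 (0.997) and Ppfibp1 (0.996) leading, and its r with principal component 1 was 0.906 against 0.294 for Neat1 and 0.224 for Malat1. Pvt1 was led by Mreg (0.991), Ncoa5 (0.989) and Eif4ebp2 (0.981), Mir17hg by Pdcd5 (0.984), Mdn1 (0.978) and H2-Ke2 (0.973), and Miat by Atp13a3 (0.988), Map6 (0.985) and Dnmt3b (0.971), a DNA methyltransferase gene. Among the members, Tug1 and Mir17hg had r = 0.836 and Tug1 and Pvt1 r = -0.753.

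Of the lists, the steepest dose slopes per 10 µM included -0.16 for Ewsr1 among paraspeckle genes, 0.26 for U2af2 and -0.24 for Srsf2 among speckle genes, 0.13 for Rpp25 and -0.30 for Pop5 among RNase P and RNase Z genes, 0.07 for Drosha and -0.28 for Tarbp2 among microRNA biogenesis genes, and 0.22 for Bmpr2 and -0.59 for Cdkn1a among miR-17-92 targets. None of these passed limma's threshold (adjusted p of 0.508 to 0.691). The median slope was -0.12 for the 7 target genes, -0.005 for paraspeckle, -0.04 for speckle, -0.05 for RNase P and RNase Z and -0.02 for microRNA biogenesis genes, against -0.04 for all genes tested. The summed level of the target genes was higher in set 2 (702 to 861 RPM, DMSO replicate 3 highest) than in set 1 (656 to 683 RPM).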
